A study of Mus musculus with 6 samples.

Results

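The Hox cluster genes are homeobox transcription factor genes that lie in 4 clusters, Hoxa, Hoxb, Hoxc and Hoxd. They were taken as the protein-coding genes named Hox, a cluster letter and a number, and 39 of the 54123 genes with a transcript in the files met that rule. Muscle satellite cells, the stem cells of skeletal muscle, had been sorted by flow cytometry from the tibialis anterior and gastrocnemius of the hind limb 30 h after these muscles were injected with cardiotoxin, a toxin that injures muscle fibres. Total RNA of these cells was sequenced in 2 Jmjd3 KO libraries, 2 Utx KO libraries and 2 Tdt control libraries. All were from adult C57BL/6 mice, and the series title calls the knockouts JMJD3scKO and UTXscKO and the control wild type. The sources used here do not give the floxed alleles, the Cre line, the age in weeks or whether a library came from 1 animal or a pool.

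In each cluster the genes are numbered by paralog group, and in mouse embryos low-numbered genes are switched on early and in anterior tissue, high-numbered genes later and in posterior and distal tissue. Silent Hox genes carry the histone mark H3K27me3, which Polycomb repressive complexes write and the demethylases UTX (gene Kdm6a) and JMJD3 (gene Kdm6b) remove. Muscle cells of the adult limb keep Hox transcripts that reflect where in the body they formed, and in mouse embryos Hoxc10 and Hoxc11 mark the hind limb and not the fore limb.

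The libraries held between 53750675 and 77675388 estimated reads. Levels between groups are given as CPM, counts scaled to library size with the trimmed mean of M-values, and levels between genes as TPM, which also takes transcript length into account. Kdm6b, the gene of the Jmjd3 knockout, had 15.9 and 16.5 CPM in the Jmjd3 KO libraries, against 29.9 and 22.7 CPM in the Tdt control libraries. It fell in Jmjd3 KO (log2 fold change −0.70 ± 0.12, SE; adjusted p = 0.0243, edgeR's quasi-likelihood test with Benjamini-Hochberg adjustment). Kdm6a, the gene of the Utx knockout, had 7.68 and 7.38 CPM in Utx KO, against 32.8 and 34.0 CPM in Tdt control, and fell by 2.15 on the log2 scale (adjusted p = 1.02e-05, edgeR). The summed level of 10 satellite cell markers, among them Pax7, Myod1 and Itga7, lay between 2744 and 2907 CPM in the 6 libraries, and each of the 10 was at 1 CPM or more on average. The 7 mature fibre markers summed to 4699 and 4918 CPM in Jmjd3 KO, 3145 and 3828 CPM in Utx KO, and 3488 and 3651 CPM in Tdt control.

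The clusters lie on GRCm38 at chr6:52155590-52260880 (Hoxa, 11 genes), chr11:96194316-96368256 (Hoxb, 10 genes), chr15:102921103-103036852 (Hoxc, 9 genes) and chr2:74668310-74765142 (Hoxd, 9 genes). Kdm6b is on chromosome 11 as well, 26.8 Mb from the Hoxb cluster. Promoter windows from RefSeq (build GRCm38.p6) were held for 22 of the 39 genes, in 24 windows, and 250 bases before the start were searched in each. The 4 windows below belong to Hoxa9 and Hoxa10, the most abundant genes of the Hoxa cluster, and to Hoxd8 and Hoxd10, neighbours in the Hoxd cluster on either side of Hoxd9, at 4.08 and 0.0463 TPM. Hoxa10 has a further window in the table, which held no match to either motif and 7 CpG pairs and is not shown. Capitals mark matches on either strand to CCAAT (reverse ATTGG) or TATAAA (reverse TTTATA).
Hoxa9, chr6:52227371-52227620, minus strand: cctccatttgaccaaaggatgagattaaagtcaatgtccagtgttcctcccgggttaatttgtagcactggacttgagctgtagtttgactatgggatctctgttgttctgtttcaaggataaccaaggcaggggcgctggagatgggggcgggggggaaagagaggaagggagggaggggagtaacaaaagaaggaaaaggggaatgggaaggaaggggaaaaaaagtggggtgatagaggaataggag
Hoxa10, chr6:52234940-52235189, minus strand: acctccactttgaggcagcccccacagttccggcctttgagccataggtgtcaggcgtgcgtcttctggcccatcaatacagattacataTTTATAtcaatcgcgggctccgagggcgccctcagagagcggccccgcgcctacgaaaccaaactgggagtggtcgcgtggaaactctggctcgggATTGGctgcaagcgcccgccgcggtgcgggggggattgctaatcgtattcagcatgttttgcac
Hoxd8, chr2:74704365-74704614, plus strand: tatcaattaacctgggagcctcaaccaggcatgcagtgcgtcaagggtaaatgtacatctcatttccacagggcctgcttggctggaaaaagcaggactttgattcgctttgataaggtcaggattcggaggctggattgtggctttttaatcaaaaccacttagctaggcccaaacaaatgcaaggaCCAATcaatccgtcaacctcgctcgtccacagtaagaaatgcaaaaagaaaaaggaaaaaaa
Hoxd10, chr2:74691641-74691890, plus strand: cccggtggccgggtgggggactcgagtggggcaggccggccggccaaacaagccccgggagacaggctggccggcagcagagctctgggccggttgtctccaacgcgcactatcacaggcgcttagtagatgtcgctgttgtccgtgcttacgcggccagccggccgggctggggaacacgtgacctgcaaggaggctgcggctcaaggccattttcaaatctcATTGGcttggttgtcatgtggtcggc
CCAAT or its reverse occurred in 14 of the 24 Hox windows and in 33.9% of all 32851 windows of the table. TATAAA or its reverse occurred in 4 of the Hox windows, against 12.4% of all windows. The Hox windows had a median GC content of 58.6% and 12.5 CpG pairs, against medians of 52.4% and 6 over all windows. Hoxd10, at a trace level, had 20 CpG pairs in its window, and Hoxd8, at 4.08 TPM, had 6. Windows of the members at 0.5 TPM or more held 3 to 28 CpG pairs and those of the other members 2 to 35, so the ranges overlapped.

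The sorted samples held transcripts of a posterior, limb-type set of Hox genes, mostly from the Hoxa and Hoxc clusters. Markers of other cells were present too, as the fibre sums above show, and which cells the Hox reads came from was not tested. Hoxc10 led at 12.2 ± 1.40 TPM (SD over the 6 libraries), and its lowest library, at 10.5 TPM, was above the highest library of any other Hox gene. Hoxa9 followed at 7.68 ± 0.97 TPM, Hoxa10 at 7.09 ± 0.73 TPM and Hoxc11 at 6.45 ± 0.67 TPM, with overlapping ranges from Hoxa9 to Hoxa10 and from Hoxa10 to Hoxc11. These 4 genes belong to paralog groups 9 to 11, whose members pattern the limb in the mouse embryo. For scale, the median of the 13847 protein-coding genes tested was 5.44 TPM.

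A second tier lay between 2 and 5 TPM. It held Hoxd8 at 4.08 ± 0.54 TPM, Hoxa7 at 3.74 ± 0.26 TPM, Hoxa11 at 3.15 ± 0.22 TPM and Hoxc9 at 2.88 ± 0.27 TPM, and neighbours in this order overlapped. Below it were Hoxc6 at 1.85 ± 0.32 TPM and Hoxa4 at 1.07 ± 0.06 TPM, the most anterior Hox gene to reach 1 TPM. In all, 10 members averaged 1 TPM or more and 15 averaged 0.5 TPM or more. Of those 15, 7 were Hoxa genes, 6 Hoxc genes and 2 Hoxd genes, and no Hoxb gene was among them.

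The level was highest inside each active cluster and lower at its ends. In Hoxa, the mean level was 0.0521 TPM for Hoxa2 and 0.275 TPM for Hoxa3. It reached its highest values at Hoxa9 and Hoxa10 and was 0.407 TPM at Hoxa13, the gene of the most distal limb. In Hoxc, the level was 0.847 TPM at Hoxc4, the most anterior member, and 12.2 TPM at Hoxc10. Past Hoxc11 it was 0.0349 TPM at Hoxc12 and 0.0781 TPM at Hoxc13, a gene known for its part in hair formation. The sharpest step in Hoxc was between Hoxc11 and Hoxc12, whose ranges over the 6 libraries ran from 5.37 to 7.30 TPM and from 0 to 0.0839 TPM.

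The Hoxd cluster was active only around its middle. Hoxd8 had 4.08 TPM and Hoxd9 0.724 TPM, whereas Hoxd10 had 0.0463 TPM and 37 reads in all over the 6 libraries. Hoxd11, a forearm and lower leg gene in the mouse embryo, had 3 reads, all in the Utx KO libraries. Hoxd1, Hoxd12 and Hoxd13 had no read in any library. A count of 0 allows up to 3 reads, which was between 0.0386 and 0.0558 CPM in these libraries, for counting error only.

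The Hoxb cluster was nearly silent. Its highest member was Hoxb2 at 0.170 ± 0.080 TPM, and Hoxb13 had no read in any library. The other 8 Hoxb genes had between 3 reads (Hoxb1) and 67 reads (Hoxb4) over the 6 libraries. By cluster, Hoxa genes made up 43.5% to 46.1% of all Hox TPM in the 6 libraries, Hoxc genes 43.7% to 47.2%, Hoxd genes 6.83% to 10.1% and Hoxb genes 0.556% to 0.801%. By position, paralog groups 9 to 13 made up 71.6% to 76.2%, groups 5 to 8 19.6% to 23.8% and groups 1 to 4 4.23% to 4.95%.

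**Figure D1:**
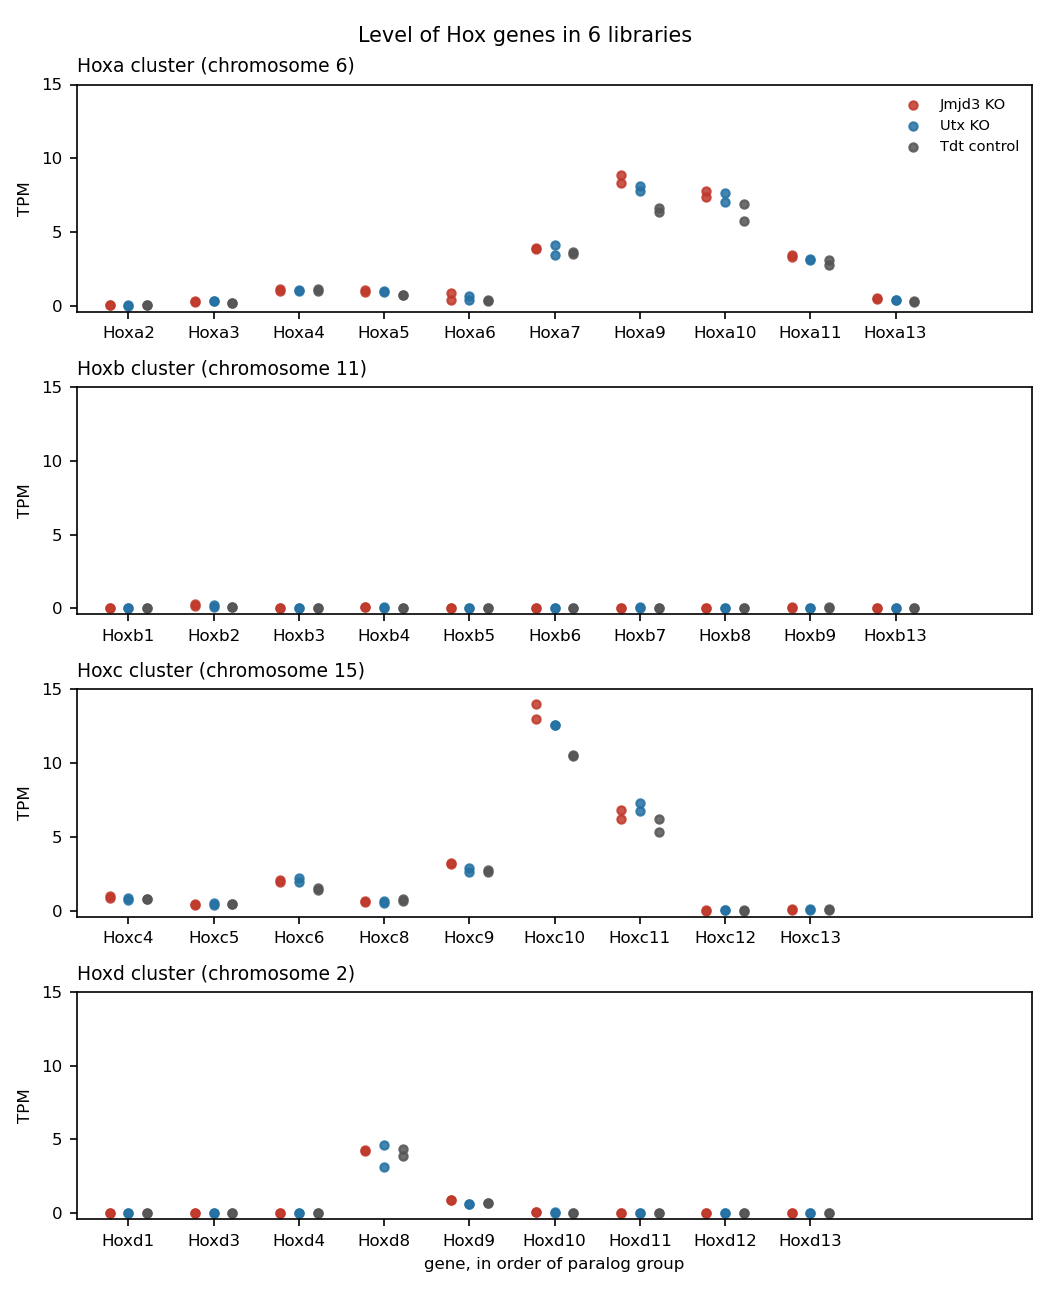
Level of 38 of the 39 Hox genes in TPM (vertical axis, linear), by cluster and in order of paralog group (horizontal axis); each point is 1 library of Jmjd3 KO, Utx KO or Tdt control. Levels peak at Hoxa9 and Hoxa10 in the Hoxa cluster, at Hoxc10 in the Hoxc cluster and at Hoxd8 in the Hoxd cluster, and no Hoxb gene reaches 0.5 TPM.

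Summed over its members, the Hoxa cluster was higher in both knockouts than in Tdt control. It had 54.3 and 52.5 CPM in Jmjd3 KO, 55.7 and 54.8 CPM in Utx KO, and 46.7 and 48.8 CPM in Tdt control. The Hoxc cluster had 65.5 and 67.9 CPM in Jmjd3 KO, 67.9 and 68.4 CPM in Utx KO, and 62.1 and 56.4 CPM in Tdt control. Each of the 4 knockout libraries was thus above both Tdt control libraries in each of these clusters. The ratio of means to Tdt control was 1.12 in Jmjd3 KO and 1.16 in Utx KO for Hoxa, and 1.13 in Jmjd3 KO and 1.15 in Utx KO for Hoxc. For Hoxc in Jmjd3 KO the log2 ratio of 0.17 was 0.10 without Tdt control replicate 2 and 0.095 without Hoxc10. Without Hoxc10 the Hoxc sums of Jmjd3 KO and Tdt control overlapped.

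The Hoxd cluster had 11.2 and 11.7 CPM in Jmjd3 KO, 11.9 and 8.81 CPM in Utx KO, and 10.7 and 11.6 CPM in Tdt control, and its groups overlapped. Utx KO replicate 2 held the lowest Hoxd sum of the 6 libraries, as it did for Hoxd8 alone. The Hoxb cluster had 0.777 and 1.07 CPM in Jmjd3 KO, 0.818 and 0.748 CPM in Utx KO, and 0.737 and 0.744 CPM in Tdt control. Its knockout libraries were all above Tdt control, but the whole cluster amounted to about 1 CPM.

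All 39 genes together had 131.7 and 133.1 CPM in Jmjd3 KO, 136.3 and 132.8 CPM in Utx KO, and 120.2 and 117.5 CPM in Tdt control. Most of the gap lay in paralog groups 9 to 13, which also made up 71.6% to 76.2% of all Hox TPM. They summed to 99.2 and 100.3 CPM in Jmjd3 KO, 99.6 and 102.7 CPM in Utx KO, and 88.6 and 86.2 CPM in Tdt control. Groups 5 to 8 summed to 26.3 and 27.1 CPM in Jmjd3 KO, 30.7 and 24.9 CPM in Utx KO, and 26.2 and 26.1 CPM in Tdt control. There the Jmjd3 KO libraries lay just above Tdt control and the Utx KO libraries on either side of it. Groups 1 to 4 summed to 6.23 and 5.65 CPM in Jmjd3 KO, 5.93 and 5.15 CPM in Utx KO, and 5.47 and 5.16 CPM in Tdt control. Both Jmjd3 KO libraries were thus above Tdt control in groups 1 to 4 as well.

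No test was made of these sums, since 2 libraries against 2 allow no small exact p, and in bulk RNA fewer cells of a type and less RNA per cell cannot be told apart. On the TPM scale the log2 ratio of Jmjd3 KO to Tdt control was 0.29 for Hoxa and 0.28 for Hoxc, against 0.16 and 0.17 on the CPM scale, while the median TPM ratio of all genes tested was 0.09. Neutrophil markers were summed over 8 genes, 6 of them at 1 CPM or more and none at 0. Their sum was higher in every knockout library than in both Tdt control libraries. It was 213 and 163 CPM in Jmjd3 KO, 143 and 172 CPM in Utx KO, and 104 and 114 CPM in Tdt control. Among the knockout libraries, Utx KO replicate 1 had the lowest neutrophil sum and the highest Hoxa sum. Within Jmjd3 KO, replicate 1 had both the higher neutrophil sum and the higher Hoxa sum. Macrophage marker sums overlapped between Utx KO (168 and 199 CPM) and Tdt control (186 and 219 CPM). The part of these markers in the result was not tested.

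**Figure D2:**
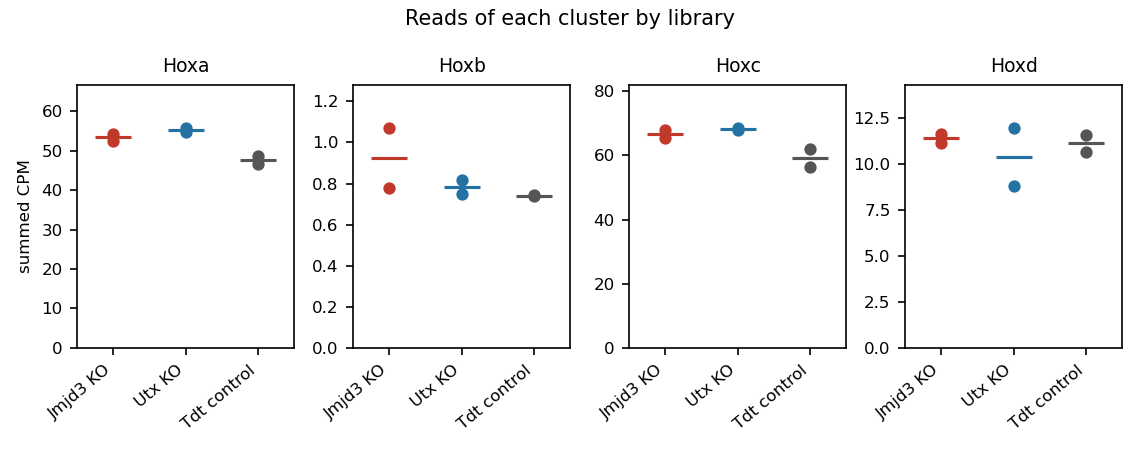
Summed CPM of each Hox cluster (vertical axis, from 0, its own scale in each panel) in Jmjd3 KO, Utx KO and Tdt control; each point is 1 library and each bar the mean of 2. For Hoxa and Hoxc all 4 knockout libraries lie above both Tdt control libraries, and for Hoxd the groups overlap.

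Loss of Jmjd3 was set against Tdt control to ask which Hox genes depend on this demethylase. Hoxc10, the hind limb gene that led all Hox levels, was the only Hox gene called in Jmjd3 KO. It had 31.3 and 32.7 CPM in Jmjd3 KO, against 27.4 and 26.2 CPM in Tdt control. It rose by 0.26 on the log2 scale (SE 0.05, adjusted p = 0.0431, edgeR), that is 1.19-fold with a 95% interval of 1.10 to 1.30. Of the 23 Hox genes that passed the filter on low counts, 1 was thus called, against 3.003% of the 17084 genes tested.

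Hoxa9, a gene of posterior limb and axial patterning, had 15.7 and 15.1 CPM in Jmjd3 KO, against 12.2 and 13.5 CPM in Tdt control. The groups did not overlap, and the log2 fold change was 0.26 ± 0.07 (SE; adjusted p = 0.107, edgeR). Hoxc6, a gene of thoracic identity, had 2.97 and 2.63 CPM in Jmjd3 KO, against 2.04 and 2.11 CPM in Tdt control, with a log2 fold change of 0.43 ± 0.15 (adjusted p = 0.168, edgeR). Hoxa10, known in mice for lumbar patterning and for its transcripts in limb satellite cells, had 13.1 and 12.5 CPM in Jmjd3 KO, against 10.7 and 12.2 CPM in Tdt control. Its log2 fold change of 0.16 had a 95% interval of −0.04 to 0.37 (adjusted p = 0.358, edgeR). None of these 3 genes passed the test, although each had both Jmjd3 KO libraries above both Tdt control libraries.

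Other abundant members did not pass the test in Jmjd3 KO either. Hoxa7 had 9.08 and 9.09 CPM in Jmjd3 KO, against 9.45 and 8.67 CPM in Tdt control, with a 95% interval of its log2 fold change from −0.22 to 0.23. Hoxc11 had 16.3 and 17.6 CPM in Jmjd3 KO, against 17.7 and 14.5 CPM in Tdt control, with an interval from −0.17 to 0.32. Hoxd8 had 8.97 and 9.43 CPM in Jmjd3 KO, against 8.95 and 9.87 CPM in Tdt control, with an interval from −0.39 to 0.33. In all 3 genes the groups overlapped. Hoxd9 had 2.06 and 1.95 CPM in Jmjd3 KO, against 1.66 and 1.59 CPM in Tdt control, and did not pass (adjusted p = 0.353, edgeR).

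The Hoxb genes gave no usable comparison in Jmjd3 KO. Hoxb2, a hindbrain gene, had 0.320 and 0.511 CPM in Jmjd3 KO, against 0.263 and 0.243 CPM in Tdt control, and the interval of its log2 fold change ran from −0.52 to 1.94. Hoxb4 had 0.198 and 0.186 CPM in Jmjd3 KO, against 0.145 and 0.167 CPM in Tdt control, with an interval from −0.65 to 1.25.

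As a description, 18 of the 23 Hox genes tested had a log2 fold change above 0 in Jmjd3 KO, against 49.1% of all genes tested, and their median was 0.26, against −0.0047 over all genes. Jmjd3 KO lay above Tdt control without overlap in 13 of the 23 and below it in 2 (Hoxc5 and Hoxc8), where 26.2% and 25.5% of all genes did so. At an unadjusted p under 0.05 stood 3 of the 23, against 19.96% of all genes, so the Hox genes were not above that background. The 8 genes of 5 CPM or more, in which the filter played no part, had a median of 0.12, with 5 above Tdt control without overlap and 0 below. By position the medians were 0.29 for the 6 genes of groups 1 to 4, 0.0033 for the 7 of groups 5 to 8 and 0.21 for the 10 of groups 9 to 13.

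The Hoxc10 call held in 4 of 14 alternatives and ended when any 1 of the 6 libraries was left out. Such fits leave 1 library in a group and called fewer genes of any kind, so they cannot show which library the call rested on. The log2 fold change of Hoxc10 was then between 0.23 and 0.29. The call also ended with only the 4 libraries compared (adjusted p = 0.0616), with the replicate block (0.102), with protein-coding transcripts only (0.0665) and with transcript length offsets (0.0726). In the authors' deposited table Hoxc10 was the only member called in Jmjd3 KO, with a log2 fold change of 0.22 and an adjusted p of 0.0331. Some summed markers of other cells were also higher in both Jmjd3 KO libraries than in Tdt control. Macrophage markers (8 of 8 genes at 1 CPM or more) had 288 and 256 CPM in Jmjd3 KO against 186 and 219 CPM in Tdt control. Of these, Cd14 alone had 132 and 106 CPM against 68.9 and 74.9 CPM, while Adgre1 overlapped. Fibro-adipogenic markers (9 of 10) had 1199 and 1189 CPM in Jmjd3 KO against 1061 and 1048 CPM in Tdt control. Of these, Col3a1 alone had 757 and 757 CPM against 666 and 621 CPM, while Pdgfra overlapped. The endothelial, mural and tenocyte sums overlapped between these groups. The part of all these markers in the result was not tested.

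**Figure D3:**
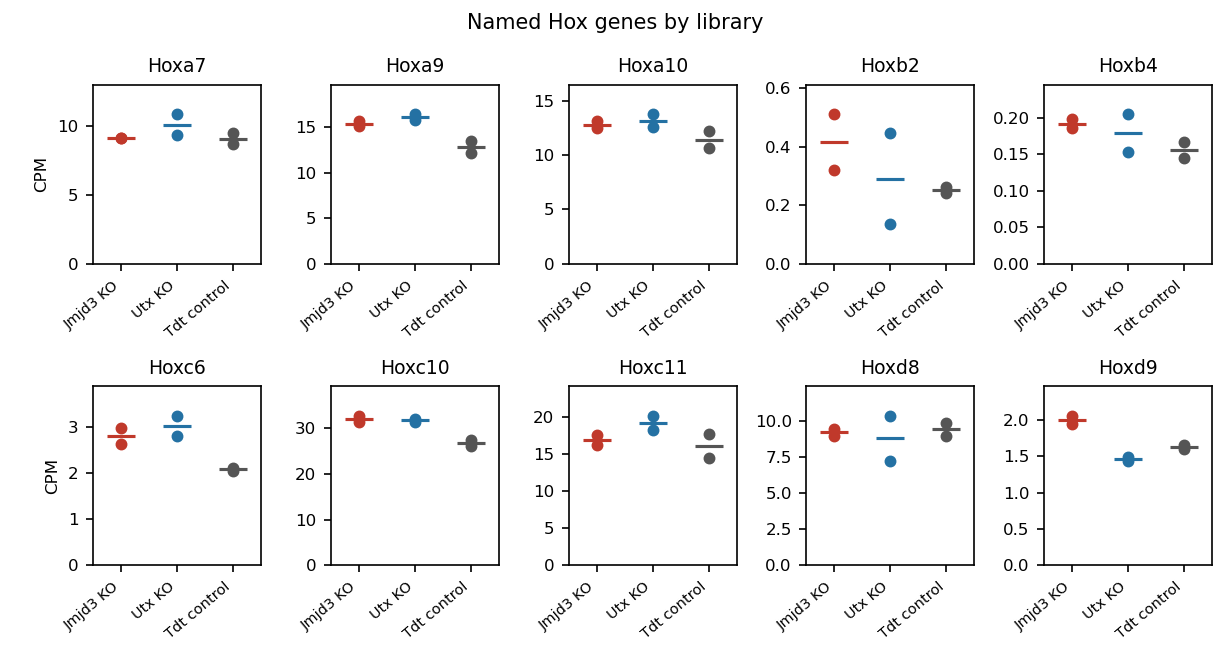
CPM of the 10 Hox genes followed by name (vertical axis, from 0, its own scale in each panel) in Jmjd3 KO, Utx KO and Tdt control; each point is 1 library and each bar the mean of 2. Hoxc10, Hoxa9, Hoxa10 and Hoxc6 lie higher in all 4 knockout libraries than in both Tdt control libraries, and Hoxd9 lies higher in Jmjd3 KO than in Utx KO.

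Loss of Utx was set against the same 2 Tdt control libraries, so its values share their error with those of Jmjd3 KO. The genes with the smallest p were again Hoxc10, Hoxa9 and Hoxc6, and none was called by edgeR. Hoxc10 had 31.4 and 32.0 CPM in Utx KO, against 27.4 and 26.2 CPM in Tdt control, with a log2 fold change of 0.24 ± 0.05 (SE; adjusted p = 0.0686, edgeR). Hoxa9 had 16.4 and 15.9 CPM in Utx KO, against 12.2 and 13.5 CPM in Tdt control, a log2 fold change of 0.33 ± 0.07 (adjusted p = 0.0836, edgeR). Hoxc6 had 3.24 and 2.80 CPM in Utx KO, against 2.04 and 2.11 CPM in Tdt control, a log2 fold change of 0.54 ± 0.15 (adjusted p = 0.137, edgeR). In each of the 3 genes both Utx KO libraries were above both Tdt control libraries.

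The count of Hox genes called in Utx KO was 0 of 23, against 1.72% of the 17084 genes tested. At an unadjusted p under 0.05 there were 4 (16.2% of all genes). DESeq2 called 2 of 17, Hoxc10 (adjusted p = 0.0401) and Hoxa9 (adjusted p = 0.0452), and 658 of the 13642 genes it tested. The authors' deposited table called 0 of the 19 members that have an adjusted p there, and its lowest was 0.0519, for Hoxc10. In edgeR with no low-count filter 3 of 35 passed in Utx KO: Hoxa9 (adjusted p = 0.0060), Hoxc10 (adjusted p = 0.0215) and Hoxc11 (adjusted p = 0.0340). Over all genes 1399 of 31164 passed in that setting. Hox calls in Utx KO thus depended on the tool and on the filter, as did the calls over all genes.

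Hoxc11, the other hind limb gene among the leaders, had 18.3 and 20.2 CPM in Utx KO, against 17.7 and 14.5 CPM in Tdt control. Its log2 fold change of 0.26 had a 95% interval of 0.018 to 0.50 and did not pass the adjustment (adjusted p = 0.277, edgeR). Hoxa10 had 12.6 and 13.8 CPM in Utx KO, against 10.7 and 12.2 CPM in Tdt control (log2 fold change 0.21, adjusted p = 0.314, edgeR). In these 2 genes the groups did not overlap, though Hoxc11 was spread as widely within Tdt control as between the group means. Hoxa7 had 10.8 and 9.35 CPM in Utx KO, against 9.45 and 8.67 CPM in Tdt control, and the groups overlapped.

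The Hoxd genes did not share this direction in Utx KO. Hoxd8 had 10.3 and 7.21 CPM in Utx KO, against 8.95 and 9.87 CPM in Tdt control, so the Tdt control libraries lay between the Utx KO libraries. Hoxd9 had 1.49 and 1.43 CPM in Utx KO, against 1.66 and 1.59 CPM in Tdt control, with a log2 fold change of −0.16 ± 0.17 (adjusted p = 0.705, edgeR). Hoxb2 had 0.446 and 0.136 CPM in Utx KO, against 0.263 and 0.243 CPM in Tdt control, and Hoxb4 had 0.205 and 0.153 CPM in Utx KO, against 0.145 and 0.167 CPM in Tdt control. Both Hoxb genes overlapped between the groups.

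Of the 23 genes, 15 had a log2 fold change above 0 in Utx KO, against 49.4% of all genes, and their median was 0.18, against −0.0022 over all genes. Utx KO lay above Tdt control without overlap in 8 and below it in 1 (Hoxd9), where 22.3% and 23.3% of all genes did so. The 10 Hoxa genes had a median of 0.33 with 9 above 0, and the 8 Hoxc genes a median of 0.0016 with 4 above 0. Beside these values, the 10 satellite cell markers summed to 2871 and 2907 CPM in Utx KO, against 2796 and 2816 CPM in Tdt control, with Myf5 and Chodl called higher (log2 fold changes 0.44 and 0.49) and Myod1 lower (−0.22, adjusted p = 0.0461, edgeR). The endothelial markers (8 of 8 genes at 1 CPM or more) summed to 61.3 and 55.7 CPM in Utx KO, against 69.6 and 75.1 CPM in Tdt control. The mural markers (6 of 6) summed to 357 and 365 CPM in Utx KO, against 384 and 374 CPM in Tdt control. The part of these markers in the result was not tested.

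The knockouts were set against each other to ask whether the Hox genes answer differently to the loss of either demethylase. No Hox gene was called in Jmjd3 KO against Utx KO (0 of 23 by edgeR and 0 by DESeq2), where 8.02% of the 17084 genes tested were. Hoxd9 alone stood at an unadjusted p under 0.05, against 25.6% of all genes. Hoxd9 had 2.06 and 1.95 CPM in Jmjd3 KO, against 1.49 and 1.43 CPM in Utx KO, with a log2 fold change of 0.46 ± 0.17 (adjusted p = 0.137, edgeR). Its neighbour Hoxd10 lay under the filter, with 8 and 14 reads in Jmjd3 KO, 2 and 8 in Utx KO, and 3 and 2 in Tdt control.

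The genes that led the other comparisons were close in the knockouts. Hoxc10 had 31.3 and 32.7 CPM in Jmjd3 KO, against 31.4 and 32.0 CPM in Utx KO, and the 95% interval of its log2 fold change ran from −0.11 to 0.13. The interval was −0.24 to 0.10 for Hoxa9, −0.45 to 0.24 for Hoxc6 and −0.43 to 0.058 for Hoxc11. For Hoxc10 a difference above 1.10-fold in either direction lay outside the interval, whereas for Hoxc6 the interval reached 0.731-fold. Over the 23 genes the median was 0.023, against 0.0014 over all genes, and 13 were above 0, against 50.3% of all genes. Jmjd3 KO lay above Utx KO without overlap in 3 genes and below it in 3, where 28.6% of all genes did so in each direction. On the CPM scale the Hoxa and Hoxc sums were lower in Jmjd3 KO than in Utx KO (log2 ratios −0.048 and −0.031), and on the TPM scale they were higher (0.084 and 0.052).

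**Figure D4:**
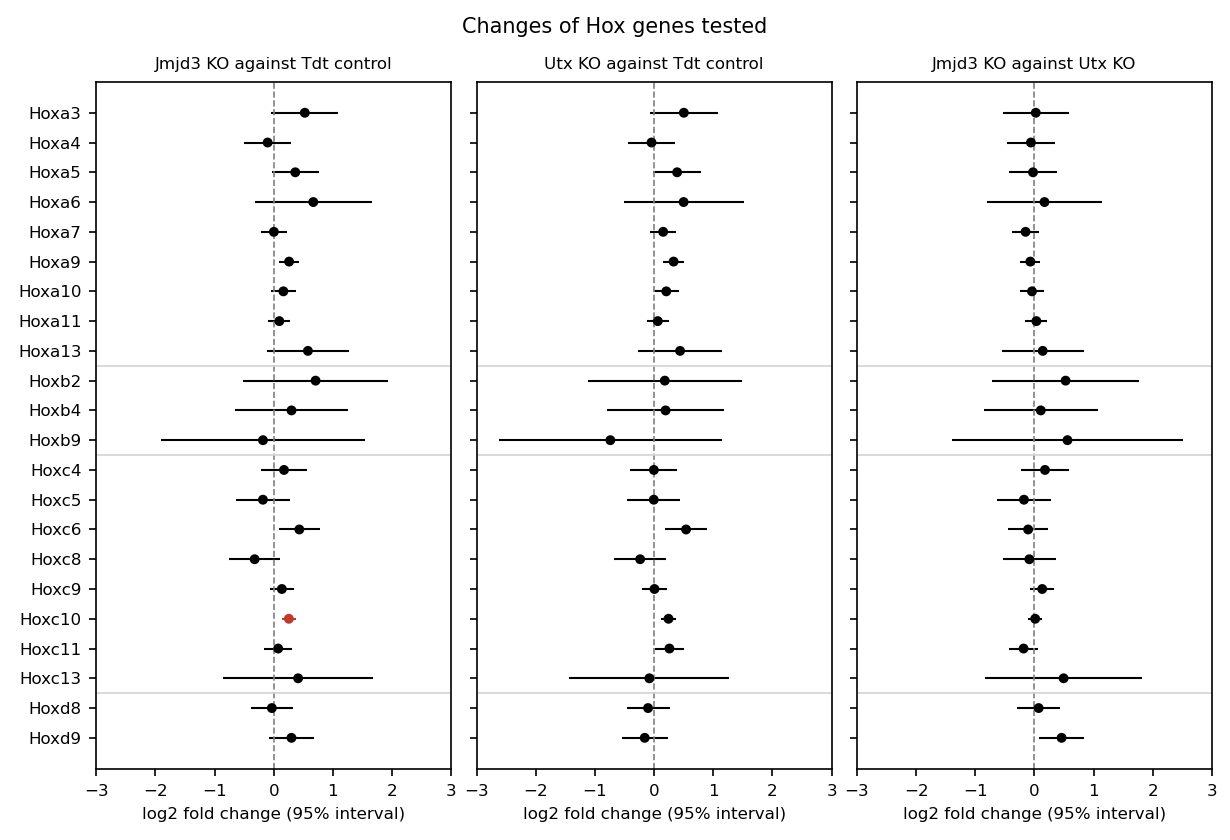
Log2 fold change (points) with its 95% interval (lines) of 22 of the 23 Hox genes tested, in order of cluster and paralog group, for Jmjd3 KO against Tdt control, Utx KO against Tdt control and Jmjd3 KO against Utx KO; red marks an adjusted p under 0.05. Only Hoxc10 in Jmjd3 KO against Tdt control is red, and the intervals of the Hoxb genes are among the widest.

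The genes that work with or on the Hox clusters were read from the same fit, by lists. The TALE homeodomain cofactors, which bind DNA together with Hox proteins, were mostly well expressed, with Pknox1 at 51.2 CPM and Pknox2 at 46.1 CPM on average. Of 8 tested, 0 were called by edgeR in any of the 3 comparisons. At an unadjusted p under 0.05 stood 2 for Jmjd3 KO and 1 for Utx KO against Tdt control, and 3 between the knockouts. DESeq2 called 1 for Jmjd3 KO against Tdt control and 0 in the other comparisons.

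Of 29 chromatin regulators of the clusters (Polycomb and Trithorax genes and Ctcf, without the demethylases Kdm6a and Kdm6b), edgeR called 0 in either knockout against Tdt control, with 6 (Jmjd3 KO) and 5 (Utx KO) at an unadjusted p under 0.05 and 1 and 3 called by DESeq2. In Jmjd3 KO against Utx KO, 1 was higher and 3 were lower. Phf19, a Polycomb accessory gene, had 25.5 and 25.6 CPM in Jmjd3 KO, against 18.7 and 19.5 CPM in Utx KO (log2 fold change 0.42, adjusted p = 0.0261, edgeR). Ezh2, the H3K27 methyltransferase, had 54.2 and 54.5 CPM in Jmjd3 KO, against 63.8 and 61.9 CPM in Utx KO (log2 fold change −0.21, adjusted p = 0.0400, edgeR). Suz12, its core partner, had 51.2 and 55.7 CPM in Jmjd3 KO, against 63.9 and 62.7 CPM in Utx KO (log2 fold change −0.24, adjusted p = 0.0433, edgeR). Ezh2 and Suz12 thus had both Utx KO libraries above both Jmjd3 KO libraries. In Tdt control Ezh2 had 55.1 and 55.2 CPM and Suz12 had 52.7 and 54.3 CPM, also below both Utx KO libraries.

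Of 14 limb and muscle positional factors tested, 2 were higher and 1 was lower in Jmjd3 KO than in Tdt control, and 2 were higher in Utx KO than in Tdt control. Between the knockouts 1 was higher in Jmjd3 KO than in Utx KO (Tbx15) and 3 were lower (Tbx4, Prrx1 and Six4). Tbx4, a hind limb gene in the mouse embryo, had 8.24 and 7.59 CPM in Jmjd3 KO, 12.3 and 12.9 CPM in Utx KO, and 11.9 and 11.0 CPM in Tdt control. It fell in Jmjd3 KO against Tdt control (log2 fold change −0.53 ± 0.08, SE; adjusted p = 0.0206, edgeR) and against Utx KO (−0.67 ± 0.08, adjusted p = 0.00554, edgeR). Lbx1, a gene of migrating limb muscle precursors, had 46.2 and 47.9 CPM in Jmjd3 KO, against 37.2 and 35.0 CPM in Tdt control, and rose by 0.38 on the log2 scale (adjusted p = 0.0312, edgeR). Tbx15 rose in Jmjd3 KO as well, by 0.33 (adjusted p = 0.0316, edgeR). In Utx KO, Six4 rose by 0.37 (adjusted p = 0.0216, edgeR) and En1 by 0.46 (adjusted p = 0.0402, edgeR) against Tdt control. Tbx5, the fore limb counterpart of Tbx4, had 5 reads over the 6 libraries and was not tested.

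The genes that flank the clusters, or lie inside them, were mostly not called. Of 15 tested, edgeR called 1 higher in Jmjd3 KO than in Tdt control (6 at an unadjusted p under 0.05, 3 by DESeq2). It called 0 in Utx KO against Tdt control (3 at an unadjusted p under 0.05, 0 by DESeq2). It called 1 higher in Jmjd3 KO than in Utx KO (4 at an unadjusted p under 0.05, 1 by DESeq2). Nfe2, a blood lineage gene on the Hoxc chromosome, had 1.43 and 1.05 CPM in Jmjd3 KO, against 0.434 and 0.471 CPM in Tdt control (log2 fold change 1.46, adjusted p = 0.0309, edgeR). Skap2, on the Hoxa chromosome, had 9.31 and 8.95 CPM in Jmjd3 KO, against 6.77 and 6.73 CPM in Utx KO (log2 fold change 0.44, adjusted p = 0.0359, edgeR). Against Tdt control, at 6.37 and 7.33 CPM, Skap2 in Jmjd3 KO had a log2 fold change of 0.42 and was not called (adjusted p = 0.0638, edgeR). Nfe2 and Skap2 are also expressed in blood cells. The neutrophil sums given above did not overlap between Jmjd3 KO and Tdt control, and overlapped between Jmjd3 KO and Utx KO. The macrophage sums overlapped in neither comparison, at 288 and 256 CPM in Jmjd3 KO, 168 and 199 CPM in Utx KO, and 186 and 219 CPM in Tdt control. The part of these markers in the Nfe2 and Skap2 results was not tested.

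Of 4 noncoding genes of the clusters that could be tested, edgeR and DESeq2 called 0 in each comparison, and 1 stood at an unadjusted p under 0.05 for Jmjd3 KO against Tdt control, with 0 elsewhere. Hotair, a noncoding gene of the Hoxc cluster, had 0.685 and 0.557 CPM in Jmjd3 KO, 0.614 and 0.782 CPM in Utx KO, and 0.487 and 0.395 CPM in Tdt control. Hoxa11os, antisense to Hoxa11, had 5.35 and 4.63 CPM in Jmjd3 KO, 4.37 and 5.10 CPM in Utx KO, and 3.80 and 4.05 CPM in Tdt control. Its reads amounted to 47.6% of those of Hoxa11, and neither kit nor counting is described as using strand, so reads of this pair may not be told apart. Of the other ANTP homeobox genes only Meox1 and Meox2 could be tested, and edgeR called neither in any comparison (at an unadjusted p under 0.05, 1 for Jmjd3 KO against either other group and 0 for Utx KO against Tdt control; DESeq2 called 1 for Jmjd3 KO against Tdt control). The ParaHox genes Cdx1, Cdx2 and Cdx4 had no read.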

How the data were processed

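RNA sequencing of 6 libraries was read from the deposited quantification files, which per the file headers hold estimated counts (reads per transcript) and TPM. DESeq2 1.28.1, Salmon 1.1.0 and cutadapt 2.6, and the builds GRCm38 and mm10, stand in the submitters' processing notes, without their roles; an annotation release was not given there. Per the file headers, the authors' deposited tables of each knockout against control hold a mean signal of normalised counts, log2 fold changes, their errors and p-values before and after adjustment.

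Estimated counts were summed per gene through the GENCODE M21 annotation (GRCm38) and rounded. Of 140748 transcripts 139448 matched with their version and 416 without; the 884 unmatched held 0.151% to 0.175% of the reads. edgeR 4.0.16 in R 4.3.3 was fitted over all 6 libraries with a genotype term (trimmed mean of M-values, filterByExpr, quasi-likelihood test, Benjamini-Hochberg adjustment over 17084 genes, called at an adjusted p under 0.05), with 3 residual degrees of freedom. DESeq2 1.42.0 was an alternative. Scripts were tested on simulated data.

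Of the 39 Hox genes 23 passed the filter and 16 did not, 4 of these without a read. Between groups CPM was used, and between genes TPM; small RNAs took 40.4% to 42.5% of TPM, which makes other TPM values low. Genes followed by name were those called, the 2 of highest TPM in each cluster and the 3 of smallest p in each comparison; of each list up to 3 called genes of smallest p. Values of 1 Hox gene and 1 cofactor are not reported by name here. Members and lists were chosen with earlier results of these data known. Alternatives were other size factors, filters, the comparison's own 4 libraries, a replicate block, protein-coding transcripts only, length offsets and each library left out. Whether replicates were separate animals is not stated; p-values then measure only the spread between these samples, which may be technical.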

Additional observations from a re-analysis of the deposited data

How the results depend on the processing

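The count of Hox genes called in Jmjd3 KO against Tdt control was 1 of 23 and became 2 of 35 with no low-count filter. It became 0 with only the 4 libraries compared, with the replicate block, with protein-coding transcripts only, with transcript length offsets, and with any library left out (0 to 0). The adjusted p of Hoxc10 in edgeR was 0.0616, 0.102, 0.0665 and 0.0726 in the order listed. With a library left out its log2 fold change was 0.23 to 0.29. In Utx KO against Tdt control the count was 0 of 23 and became 3 of 35 with no low-count filter and 2 of 17 with DESeq2. Over all genes tested, replicate differences were not shared between groups (correlation of replicate differences between −0.053 and −0.0081). Whether replicate numbers stand for samples paired at collection is not stated, and these correlations cannot show it. The block lowered the calls over all genes from 513 to 322 in Jmjd3 KO against Tdt control, from 293 to 133 in Utx KO against Tdt control and from 1370 to 948 in Jmjd3 KO against Utx KO.

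Over all genes, the calls in Jmjd3 KO against Tdt control were 1872 with no low-count filter, 1042 with DESeq2, 331 with length offsets and 113 to 434 with a library left out. In Utx KO against Tdt control they were 1399 with no filter, 658 with DESeq2, 119 with only the 4 libraries, 131 with length offsets and 16 to 96 with a library left out. In Jmjd3 KO against Utx KO they were 2856 with no filter, 792 with length offsets and 291 to 1387 with a library left out. The cause of these shifts was not tested.

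Among cluster sums (log2 ratios of mean CPM), Hoxa in Jmjd3 KO against Tdt control was 0.16 and became 0.29 as TPM and 0.12 without its member of highest TPM. Hoxa in Utx KO against Tdt control became 0.16 without that member, and Hoxa in Jmjd3 KO against Utx KO 0.084 as TPM. Hoxb in Jmjd3 KO against Tdt control became 0.058 without that member and 0.069 to 0.53 with a library left out, and in Jmjd3 KO against Utx KO −0.012 to 0.45. Hoxc in Jmjd3 KO against Tdt control became 0.28 as TPM, 0.095 without its top member and 0.10 to 0.24 with a library left out, where Tdt control replicates 1 and 2 set the ends. Hoxc in Utx KO against Tdt control was 0.13 to 0.27 with a library left out, and in Jmjd3 KO against Utx KO 0.052 as TPM. Hoxd in Jmjd3 KO against Tdt control became 0.37 without Hoxd8, and in Jmjd3 KO against Utx KO 0.47. With a library left out, Hoxd was −0.34 to 0.10 in Utx KO against Tdt control and −0.065 to 0.37 in Jmjd3 KO against Utx KO, and Utx KO replicate 2 set its sign. Leaving out the top member was chosen after seeing the data.

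By position, the median of groups 5 to 8 in Utx KO against Tdt control was 0.020 over members of 5 CPM or more. For groups 9 to 13 it was 0.31 as TPM in Jmjd3 KO against Tdt control, 0.22 over members of 5 CPM or more in Utx KO against Tdt control, and 0.00041 over such members and 0.17 as TPM in Jmjd3 KO against Utx KO.

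Among the named genes' log2 fold changes under the alternatives, 16 values had the opposite sign, all in comparisons where the gene was not called. With a library left out, the ranges that crossed 0 in Jmjd3 KO against Tdt control were −0.049 to 0.066 for Hoxa7, −0.054 to 0.23 for Hoxc11 and −0.10 to 0.048 for Hoxd8. In Utx KO against Tdt control they were −0.89 to 0.81 for Hoxb2, −0.024 to 0.39 for Hoxb4 and −0.38 to 0.14 for Hoxd8. In Jmjd3 KO against Utx KO they were −0.10 to 0.022 for Hoxa10, −0.11 to 1.60 for Hoxb2, −0.092 to 0.32 for Hoxb4, −0.018 to 0.042 for Hoxc10 and −0.17 to 0.35 for Hoxd8. With protein-coding transcripts only, Hoxa7 became −0.034 in Jmjd3 KO against Tdt control and Hoxa10 0.0062 in Jmjd3 KO against Utx KO, where Hoxa9 became 0.018 with length offsets. Hoxc10, Hoxa9 and Hoxc6 stayed above 0 in both knockouts against Tdt control under each alternative that gave them a value. These genes had the smallest p in these comparisons, and the alternatives drew on the same libraries. Their stable sign is therefore not separate evidence. With 2 libraries a group, and under 1 CPM for the Hoxb genes, smaller changes were not detectable at this depth.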

Other observations

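Transcript-level estimates, looked at after the gene values were seen, differed in make-up between the Hox genes. Hoxc10, Hoxc11, Hoxa4 and Hoxa5 have only 1 transcript in the annotation used, so all of their reads fell on it by definition. Hoxa10 was split between coding and noncoding forms, with 55.8% of its reads on protein-coding transcripts and 44.1% on a processed transcript. In Hoxc6 the protein-coding share was 67.8% and in Hoxc8 75.6%, and in Hoxa7 8.81% of the reads lay on a form annotated for nonsense-mediated decay. The TPM of a Hox gene is therefore not the level of its protein-coding RNA alone.

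A transcript listed at 0 in Tdt control had reads in every knockout library. A processed transcript of Hoxa11 was estimated at 46.6 and 45.4 reads in Jmjd3 KO, 45.4 and 47.2 reads in Utx KO, and listed at 0 in both Tdt control libraries. The main form of Hoxa11 had 615 and 570 reads in Jmjd3 KO, 461 and 527 reads in Utx KO, and 680 and 620 reads in Tdt control. Salmon's split between overlapping forms is an estimate, a listed 0 can be a failed one, and no test of isoforms was made.

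The shorter protein-coding form of Hoxa9 (851 bases) was estimated at 249.9 and 283 reads in Jmjd3 KO, 181 and 201 reads in Utx KO, and 215 and 141 reads in Tdt control. Hoxc5 is annotated with a long form that begins in the Hoxc10 region, and it was listed at 0 in all 6 libraries, so no reads of Hoxc10 were estimated to come from it.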
